A study of Oryza sativa with 9 samples.

Results

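Transcripts of 8 rice loci were followed whose deposited descriptions name a chromatin remodeller, a histone modifier, a linker histone or a cohesin subunit. They were chosen by locus identifier, with every row of these loci taken from the authors' deposited tables of differential expression. Each locus had a single listed transcript, as did 89.3% of all listed loci, so the set comprised 8 of the 832 transcripts, and 8 of the 727 loci, in the 3 tables together. The loci were picked because they were listed, so their presence and direction in a table describe the choice and were not tested.

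RNA had been taken from spikelets, which hold the rice floret with its anthers and ovary, of BC14F2 plants of Oryza sativa, which come from repeated backcrossing and then selfing. The plants differed at f5, a locus of male sterility in hybrids between rice subspecies, and 3 samples each were heterozygous f5-i/j, homozygous f5-i/i and homozygous f5-j/j. All 9 samples thus shared the backcross background, as far as the labels give it, and the labels do not state if each sample was a plant of its own, nor how old the spikelets were. The question was which transcripts separate the heterozygote from either homozygote, and the homozygotes from each other. Every value below is the authors' mean over the samples of a genotype, in a unit that the sources used here do not state. Values of single samples were not analysed here, so the means come without an error, the depth is unknown and no difference could be set against the spread between samples. A transcript was listed where the authors' probability of differential expression was at least 0.8, which is a score and not a p-value. The lowest mean in the tables was 0.01, read here as standing for no detection, so no fold of means is given against it. Deposited log2 ratios and medians that rest on it are printed as the authors' values, and their size depends on 0.01. A genotype mean may rest on a single sample, which cannot be seen here. The values are of single transcripts, among which the reads of a locus are divided by estimate, so a low value does not show that the locus was silent.

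Chromatin packs DNA around histones, and its state decides which genes can be read. SWI/SNF complexes use ATP to move or evict nucleosomes, histone methyltransferases add methyl marks to histones and demethylases remove them, deacetylases remove acetyl marks, and linker histone binds the DNA between nucleosomes. Cohesin is a ring-shaped complex that holds sister chromatids together from replication until they part in mitosis and meiosis, and meiosis takes place in the anthers and ovules of a developing spikelet. In Arabidopsis, loss of several proteins of these kinds disturbs flower development, meiosis or pollen formation.

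Of the 8 transcripts, 7 were in 2 of the authors' deposited tables and therefore had a mean for all 3 genotypes, and 1, the histone H1/5 transcript, was in a single table. Over all 832 transcripts, 47.5% were in 2 tables and 51.1% in 1, and nothing is read from the members' share because they were chosen from these tables. The 7 fell into 3 patterns. A SWI/SNF transcript and the lysine demethylase 3 transcript were lowest in the heterozygote. A second SWI/SNF transcript, the lysine demethylase 8 transcript and the cohesin SCC1 transcript were higher in f5-i/i than in both other genotypes. The histone deacetylase and SETD2 transcripts were low in f5-j/j and of similar mean in the other genotypes.

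**Figure D1:**
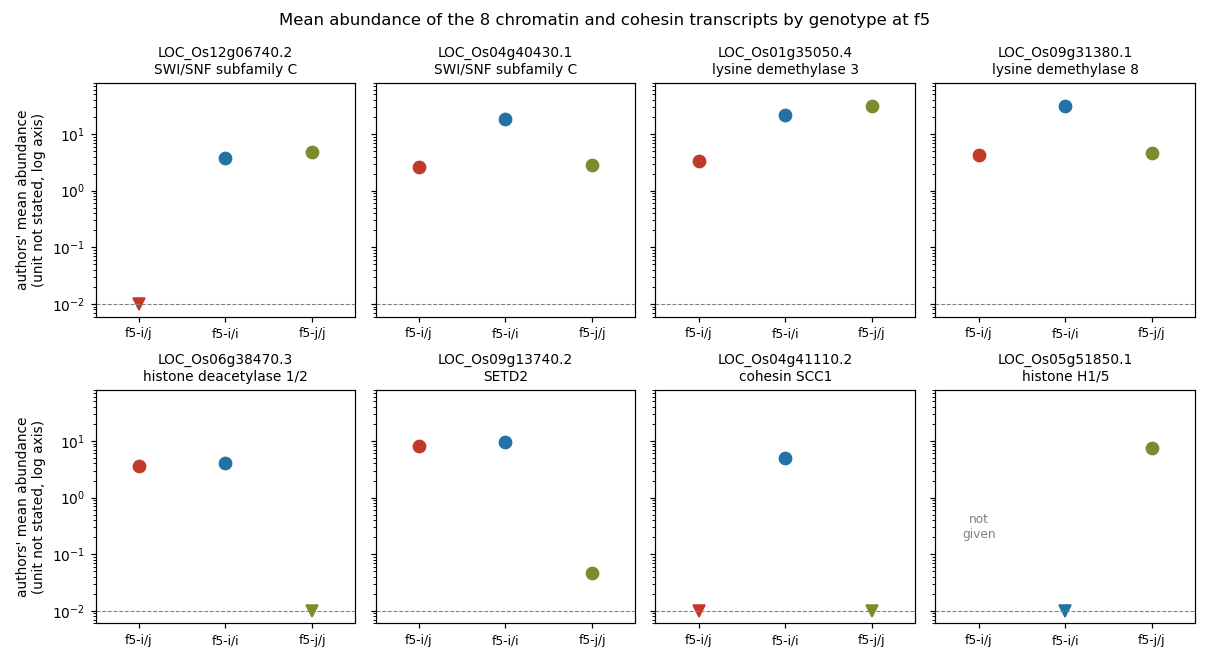
Authors' mean abundance of the 8 transcripts in f5-i/j, f5-i/i and f5-j/j on a log axis in the deposited unit, which is not stated; each point is the mean of a genotype and triangles on the dashed line are means at the lowest value of 0.01. In no panel is the f5-i/j mean the highest of the 3, and the histone H1/5 panel has no f5-i/j mean.

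The remodellers were represented by 2 SWI/SNF transcripts. Both are described as subfamily C of the SWI/SNF matrix-associated regulators, the scaffold subunits that hold the complex together, which plants call SWI3. LOC_Os12g06740.2 on chromosome 12 had an f5-i/j mean of 0.01 by the authors' values, beside 3.74 for f5-i/i and 4.74 for f5-j/j. It was thus at the lowest value in the heterozygote and above it in both homozygotes, whose means were close to each other (ratio of f5-i/i over f5-j/j 0.789). The authors' deposited table gave it a log2 ratio of -8.55 for f5-i/j over f5-i/i with a probability of 0.816, and the one with f5-j/j a log2 ratio of -8.89 with a probability of 0.851. These ratios rest on the value of 0.01. The f5-i/i mean is close to the smallest that was listed at all beside f5-i/j at 0.01, which was 3.41. With 1 added to both means the log2 ratios were -2.23 versus f5-i/i and -2.51 versus f5-j/j. The description of this locus is uncertain, since the best protein match had an e-value of 4e-11 and a bit score of 68.9, and a weaker one, with an e-value of 2e-06, was to the chaperone HtpG.

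The other SWI/SNF transcript, LOC_Os04g40430.1 on chromosome 4, behaved differently. It had an f5-i/j mean of 2.58 by the authors' values, beside 18.3 for f5-i/i and 2.85 for f5-j/j. Here f5-i/i stood apart and the heterozygote was at 0.905 times the f5-j/j mean. The mean of f5-i/j was 7.10-fold lower than that of f5-i/i, and the mean of f5-i/i was 6.43-fold higher than that of f5-j/j. Both probabilities were near the threshold of listing, at 0.807 and 0.803 in the authors' deposited tables. Its match, a rice protein of the gene LOC4336176, which lies on chromosome 4 in the RefSeq annotation of ASM3414082v1, had an e-value of 1e-98. The transcript has a coding length of 828 bases.

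Of the enzymes that erase methyl marks, lysine demethylase 3 removes methylation of histone H3 that marks silent chromatin, and its Arabidopsis relative IBM1 keeps such marks off active genes. LOC_Os01g35050.4 on chromosome 1 had an f5-i/j mean of 3.39 by the authors' values, beside 21.8 for f5-i/i and 31.4 for f5-j/j. The heterozygote was lowest by a wide margin, while the homozygotes differed by a ratio of 0.695 and were not listed against each other. The f5-i/j mean was 6.44-fold lower than the f5-i/i mean and 9.26-fold lower than the f5-j/j mean. The probabilities were 0.809 and 0.835 in the authors' deposited tables. None of its means was at the lowest value, so these ratios did not rest on it, and with 1 added to the means the log2 ratios were -2.38 and -2.88. The match to lysine demethylase 3 had a bit score of 996, and a weaker one, to the RNA polymerase III subunit RPC2, had 68.9.

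Lysine demethylase 8 is a protein of the JmjC family whose Arabidopsis relative JMJ30 is tied to the circadian clock. LOC_Os09g31380.1 on chromosome 9 had an f5-i/j mean of 4.31 by the authors' values, beside 30.6 for f5-i/i and 4.59 for f5-j/j. The heterozygote was at 0.939 times the f5-j/j mean, and f5-i/i alone was high. The f5-i/j mean was 7.10-fold lower than the f5-i/i mean, and the f5-i/i mean was 6.67-fold higher than the f5-j/j mean. The authors' deposited tables gave probabilities of 0.823 and 0.819. The demethylases of both kinds were therefore listed as lower in the heterozygote than in f5-i/i, but were placed oppositely in f5-j/j, high for lysine demethylase 3 and low for lysine demethylase 8.

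The enzyme that removes acetyl groups is described as histone deacetylase 1/2, of the zinc-dependent class found in corepressor complexes. LOC_Os06g38470.3 on chromosome 6 had an f5-i/j mean of 3.55 by the authors' values, beside 4.07 for f5-i/i and 0.01 for f5-j/j. It was above the lowest value in both genotypes that carry the i allele and at it in f5-j/j. The authors' deposited table gave a log2 ratio of 8.47 for f5-i/j over f5-j/j with a probability of 0.803, and that of the homozygotes 8.67 for f5-i/i over f5-j/j with 0.830. With 1 added to the means the log2 ratios were 2.17 and 2.33. The heterozygote mean is close to the smallest that was listed at all beside f5-j/j at 0.01, which was 3.50. The protein match had a bit score of 909. The deposited function term for it reads NAD-dependent histone deacetylase activity, the chemistry of sirtuins rather than of this class, so the match and the term differ.

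SETD2 is a histone methyltransferase that in animals marks the bodies of transcribed genes. LOC_Os09g13740.2 on chromosome 9 had an f5-i/j mean of 8.09 by the authors' values, beside 9.43 for f5-i/i and 0.0467 for f5-j/j. The heterozygote was at 0.858 times the f5-i/i mean, and f5-j/j alone was low. The f5-i/j mean was 173-fold higher than the f5-j/j mean, and the f5-i/i mean was 202-fold higher. Since 0.0467 is near the lowest value, these folds are uncertain in size. With 1 added to the means the log2 ratios were 3.12 for f5-i/j over f5-j/j and 3.32 for f5-i/i over f5-j/j. It had the highest probabilities among the 7 transcripts with 3 means, 0.896 for f5-i/j versus f5-j/j and 0.913 between the homozygotes in the authors' deposited tables. The coding length is 1164 bases, and the match was to the rice gene LOC4346677 on chromosome 9 in the same RefSeq annotation.

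Cohesin was represented by its SCC1 subunit, the kleisin that closes the ring and is cut when sister chromatids part. LOC_Os04g41110.2 on chromosome 4 had an f5-i/j mean of 0.01 by the authors' values, beside 4.94 for f5-i/i and 0.01 for f5-j/j. It was above the lowest value in f5-i/i alone. The smallest f5-i/i mean listed at all was 3.41 beside f5-i/j at 0.01 and 3.54 beside f5-j/j at 0.01. The authors' deposited tables gave a log2 ratio of -8.95 for f5-i/j over f5-i/i and of 8.95 for f5-i/i over f5-j/j, with probabilities of 0.859 and 0.860. With 1 added to the means these were -2.56 and 2.56. The match to SCC1 had a bit score of 1354, the highest of the 8. Transcript number 2 of the locus is the one listed, and no other transcript of the locus was in the tables.

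The linker histone transcript ran the other way. LOC_Os05g51850.1, described as histone H1/5 and located on chromosome 5, had an f5-i/i mean of 0.01 by the authors' values and an f5-j/j mean of 7.59. It was the one transcript of the set listed as lower in f5-i/i than its f5-j/j level, with a log2 ratio of -9.57 for f5-i/i over f5-j/j and a probability of 0.913 in the authors' deposited table. With 1 added to the means the log2 ratio was -3.09. No f5-i/j mean was given, because it was listed against neither homozygote. Among the 116 transcripts listed with f5-i/i at 0.01 and f5-i/j higher, the smallest f5-i/j mean was 3.41. Among the 58 listed as lower in f5-i/j with a f5-j/j mean no higher than 7.59, the highest f5-i/j mean was 0.127. The description is weak here too, with an e-value of 4e-12 and a bit score of 68.6, and the coding length of 1617 bases, 538 codons without the stop, is long for a linker histone.

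Counted by comparison, all 5 of the transcripts listed for f5-i/j versus f5-i/i were lower in the heterozygote. Lower transcripts of that table made up 26.9% of the 832 transcripts in the 3 tables, higher ones 30.8% and those of either direction 57.7%. Within that table itself, 224 of its 480 transcripts were lower and 256 higher in the heterozygote. The median log2 ratio of the 5 in the authors' deposited table was -2.83. It was -8.42 over the 224 transcripts listed as lower in the heterozygote and 1.84 over all 480 listed transcripts. Without means at the lowest value, the median size of the log2 ratio was 2.83 for the members and 3.38 for the lower transcripts. The 2 that had f5-i/j at the lowest value were the SWI/SNF transcript LOC_Os12g06740.2 and SCC1.

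For f5-i/j versus f5-j/j, 4 were listed, of which the deacetylase and SETD2 transcripts were higher and the SWI/SNF transcript LOC_Os12g06740.2 and lysine demethylase 3 were lower in f5-i/j. Higher and lower transcripts of this table were 18.8% and 23.3% of the 832, and 42.1% were listed in either direction. Within the table itself, 156 of its 350 transcripts were higher and 194 lower in f5-i/j. The median log2 ratio of the 4 was 2.11, beside -2.15 over all 350 listed. A median of so few values that go both ways carries little, and with 1 added to the means it was -0.17. Its heterozygote means come from the same f5-i/j samples as those of the first comparison.

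Between the homozygotes 6 were listed, 5 higher and 1 lower in f5-i/i. Higher transcripts of this table were 22.8% of the 832, lower ones 27.8% and those of either direction 50.6%. The median log2 ratio of the 6 was 5.20 in the authors' deposited table, beside -1.95 over all 421 listed. Of the 6 ratios 3 rest on a mean of 0.01 and they go both ways, and the median was 3.98 with 0.1 added to the means and 2.41 with 1 added. The 5 higher ones were the SWI/SNF transcript LOC_Os04g40430.1, lysine demethylase 8, the deacetylase, SETD2 and SCC1. The comparison shares its means with the other pair of tables, so the counts of the 3 tables are not independent, and for the 7 transcripts with 3 means they restate the patterns above.

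**Figure D2:**
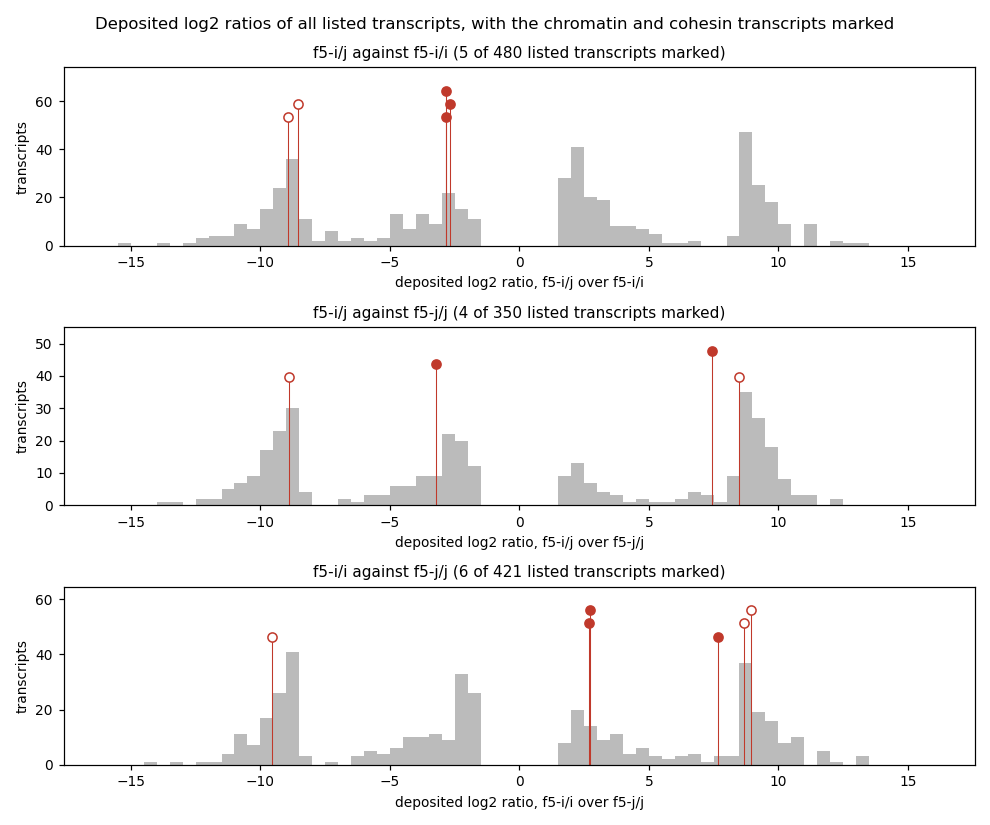
Histograms of the deposited log2 ratio (x axis) against the number of transcripts (y axis) in each of the authors' deposited tables, with the chromatin and cohesin transcripts marked by red lines and points, open where 1 of the means is at 0.01. All 5 marked transcripts of the first panel lie on the side lower in f5-i/j, those of the second are 2 on each side, and 5 of 6 in the third lie on the side higher in f5-i/i.

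By probability, the homozygote table placed histone H1/5 at rank 91 and SETD2 at rank 93 of 421, and the other 4 between ranks 173 and 407. For f5-i/j versus f5-i/i the ranks ran from 180 of 480 for SCC1 to 427 for LOC_Os04g40430.1. For f5-i/j versus f5-j/j the deacetylase was at 332 of 350. The values closest to the threshold of 0.8 were 0.803, for the deacetylase in that table and for LOC_Os04g40430.1 between the homozygotes. Transcripts just below the threshold were not analysed here.

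Among the 7 transcripts with 3 means, the heterozygote was lowest in 4, between the homozygotes in 2, equal to the lower homozygote at 0.01 in 1 and highest in 0. Of the 407 transcripts with 3 means in the tables, the heterozygote was lowest in 28.3%, between in 28.5%, equal to a homozygote in 16.0% and highest in 27.3%. In 2 of the 4, LOC_Os04g40430.1 and lysine demethylase 8, the heterozygote lay less than 2-fold below f5-j/j, so only LOC_Os12g06740.2 and lysine demethylase 3 were lowest by at least 2-fold. By the genotype farthest from its nearest other on the log scale, f5-i/i stood apart in 3 of the 7 and in 43.5% of the 407, f5-i/j in 2 and in 33.7%, and f5-j/j in 2 and in 22.9%. A mean for all 3 genotypes exists only for transcripts in at least 2 tables, 12 of which were in all 3, and none of the 8 was among those 12.

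Other loci of the same processes were searched by 23 words in the deposited descriptions, such as nucleosome, bromodomain, polycomb, condensin and argonaute, of which 8 had a match. The search found 12 loci, the 8 above and 4 others. Without the 8, the f5-i/j versus f5-i/i table held 2 higher loci and 1 lower one, that of f5-i/j versus f5-j/j 0 and 1, and that of f5-i/i versus f5-j/j 1 and 1. Of these 4, another lysine demethylase 8, LOC_Os08g39810.1 on chromosome 8, had an f5-i/j mean of 0.170 by the authors' values, beside 8.42 for f5-i/i and 0.320 for f5-j/j. Like LOC_Os09g31380.1 it was high in f5-i/i alone, and the f5-i/j mean was 49.5-fold lower than the f5-i/i mean. The f5-i/i mean was 26.3-fold higher than the f5-j/j mean. Since 0.170 and 0.320 are low means, both folds are uncertain in size.

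A bromodomain protein, LOC_Os08g09340.2 on chromosome 8, of a family that reads acetylated histones, had an f5-i/j mean of 6.64 by the authors' values and an f5-i/i mean of 0.01. It was higher in the heterozygote, with a probability of 0.898 in the authors' deposited table, and no f5-j/j mean was given. The remaining pair are weak matches. LOC_Os04g51190.1 and LOC_Os04g51190.2 had identical values, an authors' mean of 4.75 for f5-i/j, 0.01 for f5-i/i and 4.81 for f5-j/j, and matched lysine demethylase 3 at an e-value of 9e-06, below a better match with no description. LOC_Os03g17930.1, with an f5-i/j mean of 8.19 by the authors' values and an f5-j/j mean of 32.4, matched elongation factor 1-alpha first and the cohesin protein SMC1 second, at an e-value of 6e-08, so cohesin was not its best match.

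**Figure D3:**
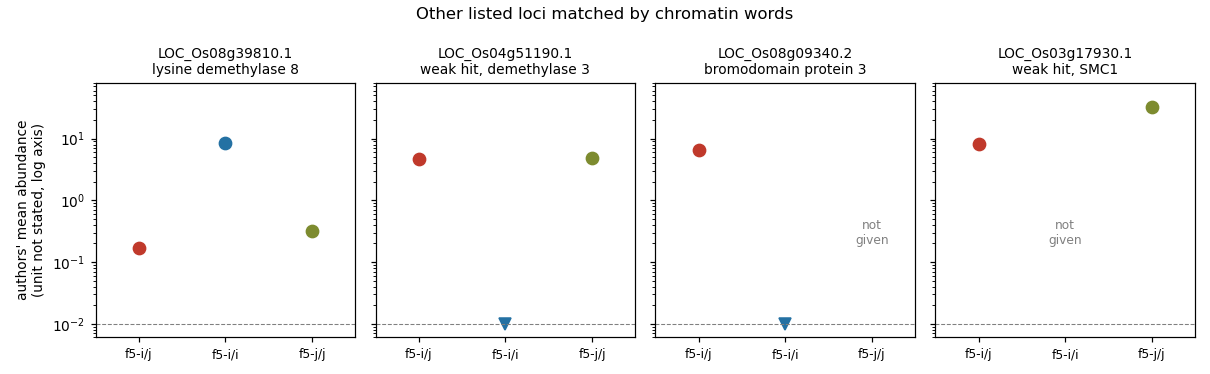
Authors' mean abundance, on a log axis in the deposited unit, of the 4 further loci matched by chromatin words in f5-i/j, f5-i/i and f5-j/j; triangles on the dashed line mark means at 0.01. The lysine demethylase 8 at left is high in f5-i/i alone, at 8.42, whereas LOC_Os04g51190.1, drawn for a pair of transcripts with identical values, is at 0.01 there.

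By position, the 8 loci lay on 6 chromosomes, with 2 each on chromosomes 4 and 9. Locus numbers run along a chromosome, and LOC_Os04g40430 and LOC_Os04g41110 were 680 numbers apart. Both had their high mean in f5-i/i. A further listed transcript between them, of glyceraldehyde 3-phosphate dehydrogenase (LOC_Os04g40950.3), an enzyme of glycolysis, had an f5-i/j mean of 0.01 by the authors' values and an f5-i/i mean of 3.47. This stretch was singled out after its values were seen, and loci beyond its ends were placed otherwise. LOC_Os04g41560.2, 450 numbers past SCC1, was lowest in f5-i/i, at an authors' mean of 62.1 for f5-i/j, 13.4 for f5-i/i and 49.2 for f5-j/j. On the other side, LOC_Os04g39440.1 and LOC_Os04g39440.3 both had an f5-i/i mean of 0.01 but were placed oppositely in the other genotypes. LOC_Os04g39440.1 had an authors' mean of 0.01 for f5-i/j and 5.39 for f5-j/j. LOC_Os04g39440.3 had 8.41 for f5-i/j and 0.01 for f5-j/j. Within 1000 locus numbers of each member, 0 to 5 other loci were listed, the most around histone H1/5 on chromosome 5. The same count was not made around other listed loci, so nothing is read from it.

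The transcripts with the most similar means, by distance over the 3 genotypes in log2 of the mean plus 0.1, had no chromatin description. Nearest to lysine demethylase 3 was a heat shock transcription factor (LOC_Os10g28340.1), at an authors' mean of 4.86 for f5-i/j, 24.6 for f5-i/i and 22.6 for f5-j/j. Nearest to LOC_Os12g06740.2 was a glucan endo-1,3-beta-glucosidase (LOC_Os09g32550.1), at 0.01 for f5-i/j, 4.45 for f5-i/i and 4.63 for f5-j/j by the authors' mean. Nearest to the deacetylase was a ubiquitin-activating enzyme E1 (LOC_Os07g49230.1), at 3.93 for f5-i/j, 3.69 for f5-i/i and 0.01 for f5-j/j. Nearest to LOC_Os04g40430.1 was a dehydrogenase/reductase of the SDR family (LOC_Os11g16410.4), at 2.47 for f5-i/j, 18.6 for f5-i/i and 2.52 for f5-j/j. Those nearest to SCC1 (LOC_Os02g14720.2), SETD2 (LOC_Os10g27274.1) and lysine demethylase 8 (LOC_Os09g23300.1) have no description of a protein.

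Tissue markers could be looked up only among listed transcripts. A marker of similar level in all genotypes would not be listed, so a missing marker does not show which tissue was present. Of 8 floral organ MADS-box loci searched none was listed, and of 7 tapetum and pollen loci 1 was. It was LOC_Os11g37280.1, or C6, which transfers lipids in the tapetum, the anther layer that nourishes pollen, at an authors' mean of 34.1 for f5-i/j, 33.8 for f5-i/i and 0.413 for f5-j/j. The deacetylase and SETD2 transcripts were likewise low in f5-j/j alone. Green tissue loci, described by light-harvesting, photosystem or chlorophyll, were mostly higher in the heterozygote than in f5-i/i. There 23 transcripts were higher and 1 lower, from 19 loci, beside 256 higher and 224 lower over all listed. Relative to f5-j/j the heterozygote had 4 higher and 1 lower, beside 156 and 194 over all listed. All 8 listed between the homozygotes, from 6 loci, were lower in f5-i/i, beside 190 higher and 231 lower over all listed. The part of tissue makeup in the results above was not tested, and fewer cells of a type and less RNA per cell cannot be told apart in such samples.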

How the data were processed

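PolyA RNA of 9 spikelet samples was fragmented, primed at random and read on an Illumina HiSeq sequencer, per the labels' protocols. The submitters' processing notes name RSEM, BWA and Bowtie and give no version. Genome build, normalization and the program behind the probability are not stated in the labels or headers. What the authors deposited are 3 filtered lists. The deposited means are a signal per transcript, averaged over a genotype, per the file headers. The deposited log2 ratio was checked by recomputing it from the means. The deposited probability is a score from 0.8 up. Deposited lengths were all multiples of 3 and so are coding lengths. Columns were matched to genotypes through table names, and means that recur between tables were equal within 1e-06.

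Rows of the 8 loci were selected by identifier and counted against all listed transcripts (Python 3.11.15, pandas 2.3.3). No test was run, since no values of single samples or full table were analysed here. The pattern functions were tested on simulated data. How reads were shared out among the transcripts of 1 locus is estimated, which makes single transcripts uncertain. The members, word list and comparisons were chosen with earlier results of these data known. Named were all transcripts of the 8 loci, every other word-matched transcript and the nearest transcript by means. The listed tapetum marker and neighbours on chromosome 4 were named in addition, the neighbours after their values were seen. The locus identifiers had no match in the reference table (ASM3414082v1), and no sequence is shown. Alternatives were a probability of at least 0.9, an absolute log2 ratio of at least 2, a higher mean of at least 5, means at the lowest value left out, loci as the unit, pseudocounts of 0.1 and 1, and a 2-fold margin.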

Additional observations from a re-analysis of the deposited data

How the results depend on the processing

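No paired analysis was possible because the deposited columns are genotype means that carry no replicate number, and for the same reason no sample could be left out. Counts of listed transcripts were the same at an absolute log2 ratio of at least 2 and with loci as the unit. At a probability of at least 0.9 the members listed fell to 0 for f5-i/j versus f5-i/i (5 lower as reported), to 0 higher and 0 lower for f5-i/j versus f5-j/j (2 and 2) and to 1 higher for f5-i/i versus f5-j/j (5), while 1 lower was kept as a count. Without transcripts at the lowest mean, and likewise with a higher mean of at least 5, they were 3 lower in the first comparison, 1 higher and 1 lower in the second and 3 higher in the third. The 1 lower in the third became 0 without the lowest mean. Among members with 3 means, f5-i/j was lowest in 4, and in 2 with a 2-fold margin. For the word-matched loci the counts, 2 higher and 6 lower, 2 and 3, and 6 and 2 in the order of comparisons above, became 0 and 0, 0 and 0, and 1 and 1 at a probability of at least 0.9, and 2 and 1, 0 and 1, and 1 and 1 without the 8 loci. Fewer transcripts enter each of these counts by construction. The median log2 ratio of members for f5-i/j versus f5-j/j, 2.11 as deposited, was 0.94 with 0.1 added to the means and -0.17 with 1 added, and that for f5-i/i versus f5-j/j, 5.20, was 3.98 and 2.41. The first is a median of 2 positive and 2 negative ratios, and adding 1 shrinks those that rest on a low mean most. Read depth is unknown, so what it limits cannot be given.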
